A study of Mus musculus with 12 samples.

Results

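In livers of mice fed a diet that injures the bile ducts, hepatocyte-derived cells that carry the surface protein Cd24 (called intermediate) were compared with hepatocyte-derived cells that do not (called early). The comparison takes 6 of the series' 12 bulk RNA libraries, 3 intermediate against 3 early, chosen by their titles. All mice are labelled wild type (WT) and received AAV8-TBG-Cre, an adeno-associated virus in which the hepatocyte promoter TBG drives Cre recombinase, so that hepatocytes and their descendants carry the lineage mark EGFP. A diet with 0.1% of the porphyrin-inducing compound DDC (3,5-diethoxycarbonyl-1,4-dihydrocollidine) began 1 week after the virus, and cells were sorted after 8 weeks. Early cells were EGFP+ Cd24- Epcam-, and intermediate cells were EGFP+ Cd24+ Epcam-. The other groups, used here to share the estimate of spread and for a later step, were EGFP+ Cd24+ Epcam+ cells (called full) and EGFP- Epcam+ biliary epithelial cells (BEC), with 3 libraries each. All 4 groups had the same virus and diet, so the comparison measures an effect of neither. EGFP marks only cells that the virus reached, and the labels do not say whether each replicate is 1 mouse, a pool of mice or a repeat sort.

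Hepatocytes make most plasma proteins, detoxify ammonia and drugs, and synthesise bile acids. Cholangiocytes line the bile ducts, carry a primary cilium, and modify bile by secreting fluid. During chronic bile duct injury some hepatocytes take on ductal traits, a process in which the YAP, Notch and TGF-beta pathways and the factor SOX9 are known to act. CD24 and EPCAM are surface glycoproteins found on ductal and progenitor-like liver cells, and DDC is known to block ferrochelatase, the last enzyme of heme synthesis.

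Each of the 6 libraries compared held between 15112893 and 19399934 counts assigned to genes. Levels are given as CPM, counts relative to library size scaled by TMM factors, in the order of replicates 1, 2 and 3. CPM is not corrected for gene length, so levels are compared between libraries and not between genes. The 50 most abundant genes took 33.5% ± 2.39 of the counts in the early libraries and 21.1% ± 0.391 in the intermediate ones (SD, n = 3), and the TMM factors were 0.652 to 0.672 and 1.03 to 1.05. Mitochondrial genes took 6.0%, 11.4% and 5.45% of counts in the early libraries and 3.99%, 4.75% and 4.07% in the intermediate ones, so early replicate 2 stood apart. Scaling by total counts in place of TMM moved the median over all genes tested from 0.06 to 0.72 on the log2 scale.

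Cd24a, the gene of the gate, was at 2.77, 5.54 and 1.29 CPM in the early libraries and 509, 460.5 and 361 CPM in the intermediate libraries, which describes the sort and is not a result. Epcam was gated out in both groups alike. Its transcript was nevertheless at 0.632, 0.818 and 0.323 CPM in the early libraries and 26.6, 17.4 and 12.4 CPM in the intermediate libraries, a 31.8-fold rise (adjusted p = 7.69e-08), with the 254 ± 41 CPM (SD, n = 3) of the full libraries still higher. All 18 hepatocyte markers listed were detected in the early libraries. They were detected in the intermediate libraries too, so detection alone does not check the hepatocyte label of the early cells. Intermediate cells kept these transcripts at lower levels, with 0 of 18 higher, 18 lower and a median log2 fold change -2.42. In sorted bulk cells, fewer cells of a type and less RNA per cell cannot be told apart.

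Of 16210 genes tested, 8817 (54.4%) were called at an adjusted p under 0.05 (edgeR's quasi-likelihood test, Benjamini-Hochberg adjustment over all genes tested). Of these, 4658 genes (28.7% of those tested) rose and 4159 (25.7%) fell from early to intermediate cells. These 2 shares are the background for every list count below. In 9520 of the 16210 genes tested the 3 early and 3 intermediate libraries did not overlap. Among the genes called, 1454 rose and 648 fell at least 4-fold, and 578 rose and 31 fell at least 16-fold. These numbers include genes near the limit of detection. In 641 genes that rose the early libraries, and in 26 that fell the intermediate libraries, were at or under the floor of 3 counts per library. With total-count scaling the calls were 85.6% higher, against 52.8% with TMM. All 4658 higher calls stayed higher under that scaling, while 1623 of the 4159 lower calls stayed lower and 545 turned into higher calls.

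**Figure D1:**
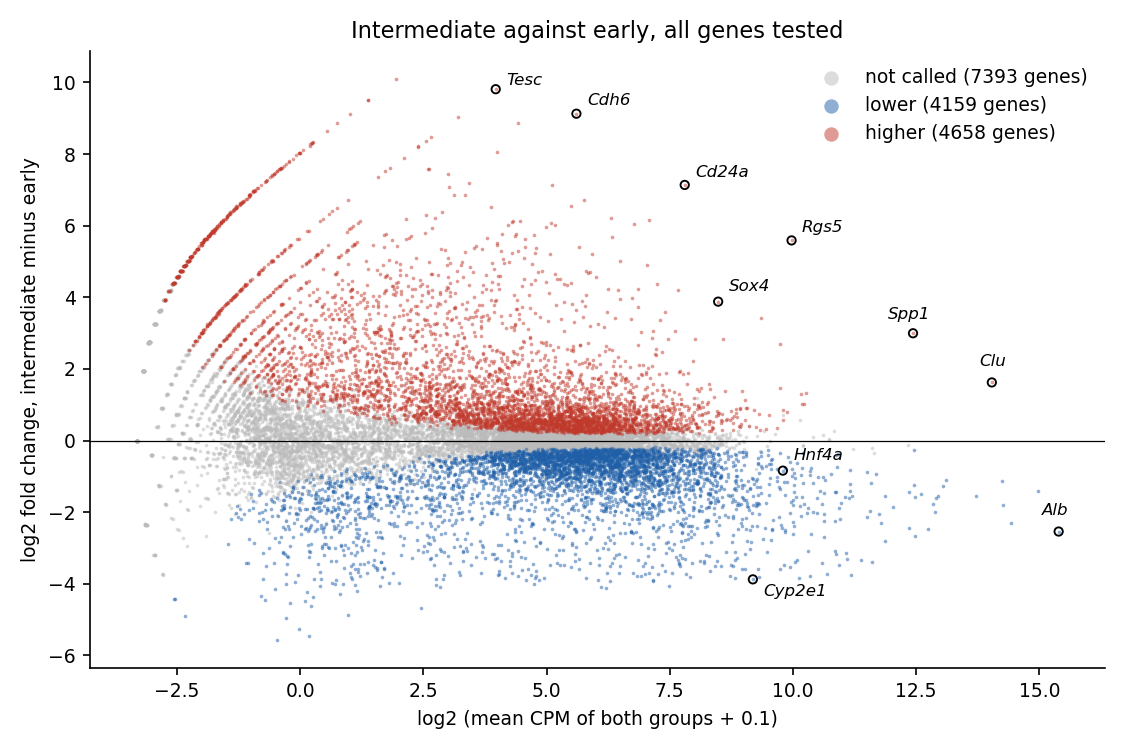
Log2 fold change of intermediate minus early cells (vertical axis) against the mean level of each gene over both groups (horizontal axis, log2 of CPM + 0.1) for the 16210 genes tested; each point is 1 gene, and colour marks genes called higher or lower at an adjusted p under 0.05. Gains reach further from 0 than losses: 578 genes rose and 31 fell at least 16-fold.

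Genes that rose most had almost no reads in early cells. Tesc, which encodes the calcium-binding protein tescalcin, was at 0.079, 0 and 0 CPM in the early libraries and 50.7, 26.7 and 15.8 CPM in the intermediate libraries. With the early libraries at or under 3 counts the rise was at least 114-fold (adjusted p = 1.72e-07). Groups without overlap were a condition for the genes with the largest change in each direction, so their separation is not a result. Cdh6, a cadherin of developing kidney and ductal epithelia, was at 0.079, 0.363 and 0.0808 CPM in the early libraries and 133, 92.3 and 65.3 CPM in the intermediate libraries, a log2 fold change of 9.13 (SE 0.38, adjusted p = 9.16e-10) that became 10.13 without early replicate 2. Rgs4, a regulator of G protein signalling, was at 0.079, 0 and 0 CPM in the early libraries and 19.8, 17.5 and 17.4 CPM in the intermediate libraries, at least 66.8-fold higher. Flnc (the actin crosslinker filamin C), Anxa13 (an annexin of epithelial cells) and Cftr (the chloride channel of ductal secretion) rose at least 156-fold, at least 116-fold and at least 43.7-fold. The other genes of the 10 with the largest rise were Gm14226, Ppp2r2b, Nipal2 and Clic6, which rose between at least 37.8 and at least 45.3-fold. Without intermediate replicate 1 the bound of Clic6 was 20.9-fold. None of the 10 exceeded 0.363 CPM in any early library.

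Most of the genes that fell most stayed detectable in intermediate cells. Cyp3a25, a drug-metabolising cytochrome P450, was at 393, 374 and 253 CPM in the early libraries and 15.5, 30.1 and 14.8 CPM in the intermediate libraries, a log2 fold change of -4.07 (SE 0.26, adjusted p = 2.64e-08). Every intermediate library lay more than 8-fold under every early one, in a list that took only genes without overlap. Rgn (regucalcin, a calcium-binding lactonase), Nlrp6 (an inflammasome sensor) and Mfsd2a (a transporter of omega-3 lipids) had log2 fold changes of -3.92, -3.91 and -3.90. BC024386, Cyp2d13, Cyp2d38-ps, Fam47e and H2-Q1 had log2 fold changes from -4.01 to -4.66 (Cyp2d38-ps, at 0.126, 0.274 and 0.792 CPM in the intermediate libraries, -5.62 without intermediate replicate 3); the Cyp2d genes and H2-Q1 have near-identical copies, so reads could be split between them. Among genes whose higher group reached 100 CPM, the typical loss was larger than the typical gain, and only the largest gains reached further. The median fold was 2 for losses and 1.65 for gains, and the 90th percentile 5.51 and 4.22. Of 1530 such genes that fell, 96 fell at least 8-fold, 3 at least 16-fold and 0 at least 32-fold, the largest being 17.4-fold. Of 633 such genes that rose, 37 rose at least 8-fold, 20 at least 16-fold and 9 at least 32-fold, the largest being the 141-fold of Cd24a, the gene of the gate (log2 fold change 7.14, or 7.76 without early replicate 2).

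Promoters of 5 genes the results turn on are shown because their base composition differs, from 250 bases before the start of transcription to 50 after it (RefSeq, build GRCm38.p6; the count table was made on GRCm39 per the submitters' processing notes). Tesc (at chr5:118027493-118027792, plus strand), Cdh6 (chr15:13173626-13173925, minus strand) and Sox4 (chr13:28953650-28953949, minus strand) rose. Alb (chr5:90460620-90460919, plus strand) and Cyp2e1 (chr7:140763569-140763868, plus strand) fell. Capitals mark matches to the GC box GGGCGG, the TEAD motif GGAATG or the TATA box TATAAA, on either strand.
Tesc: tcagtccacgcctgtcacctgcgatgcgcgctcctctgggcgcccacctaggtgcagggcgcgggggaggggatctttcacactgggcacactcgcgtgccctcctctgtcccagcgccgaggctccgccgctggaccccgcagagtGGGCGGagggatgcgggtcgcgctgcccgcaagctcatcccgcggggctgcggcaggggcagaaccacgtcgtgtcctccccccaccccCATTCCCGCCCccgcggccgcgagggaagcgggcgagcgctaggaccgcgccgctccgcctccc
Cdh6: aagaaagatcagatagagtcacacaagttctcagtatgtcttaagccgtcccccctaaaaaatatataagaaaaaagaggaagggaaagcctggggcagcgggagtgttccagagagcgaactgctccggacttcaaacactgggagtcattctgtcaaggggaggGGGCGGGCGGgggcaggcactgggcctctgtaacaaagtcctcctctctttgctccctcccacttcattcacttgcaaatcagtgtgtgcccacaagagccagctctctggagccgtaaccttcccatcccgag
Sox4: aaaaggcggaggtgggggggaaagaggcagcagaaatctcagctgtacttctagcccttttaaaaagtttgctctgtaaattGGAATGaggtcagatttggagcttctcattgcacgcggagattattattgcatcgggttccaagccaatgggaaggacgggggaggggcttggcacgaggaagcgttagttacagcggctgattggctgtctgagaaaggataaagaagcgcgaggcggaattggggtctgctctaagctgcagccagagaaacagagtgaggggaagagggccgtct
Alb: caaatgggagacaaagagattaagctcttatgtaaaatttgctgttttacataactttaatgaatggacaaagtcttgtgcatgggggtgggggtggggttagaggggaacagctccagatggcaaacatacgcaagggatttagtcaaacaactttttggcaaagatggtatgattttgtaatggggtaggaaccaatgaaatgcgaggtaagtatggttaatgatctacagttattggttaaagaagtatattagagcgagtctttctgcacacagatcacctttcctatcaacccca
Cyp2e1: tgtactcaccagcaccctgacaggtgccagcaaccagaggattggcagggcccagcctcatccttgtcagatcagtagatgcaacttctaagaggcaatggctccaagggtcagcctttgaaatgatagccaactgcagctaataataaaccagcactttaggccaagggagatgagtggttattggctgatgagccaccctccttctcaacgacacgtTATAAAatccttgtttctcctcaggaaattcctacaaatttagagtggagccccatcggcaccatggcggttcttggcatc
Tesc holds a TEAD motif on the minus strand 14 bases before the start and GC boxes 103 and 9 bases before it, and its G and C content is 74.7% with 36 CpG. Cdh6 holds 2 overlapping GC boxes (53% G and C, 8 CpG), and Sox4 holds a TEAD motif 168 bases before the start (52%, 12 CpG). Cyp2e1 holds a TATA box 31 bases before the start (49.7%, 4 CpG), and Alb has no match to the motifs searched (40%, 3 CpG).

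Across all promoters, the same contrast was weak for all genes called and larger for those changed at least 2-fold. A promoter was matched by symbol for 3508 genes that rose, 3188 that fell and 11575 of those tested. The GC box GGGCGG (reverse CCGCCC) was in a promoter of 70.4% of the genes that rose, 63.1% of those that fell, 65.7% of those tested and 38.2% of all 27025 genes in the table. The median G and C content, from the richest promoter of each gene, was 63.3%, 60.3%, 61.3% and 53.3% in the same order. With only genes that have 1 promoter in the table it was 62% for genes that rose and 59.3% for those that fell. The HNF4A motif CAAAGTCCA was in 0.342%, 0.816%, 0.631% and 0.555%. The TEAD motif GGAATG was in 15.7%, 15.1%, 14.7% and 16.6%, and the AP-1 motif TGACTCA in 5.16%, 5.18%, 4.91% and 5.95%, shares that hardly differed. Genes changed at least 2-fold held the GC box in 67.3% (rose) and 51.4% (fell), and the HNF4A motif in 0.445% and 1.52%. Their median G and C content was 62.3% and 57.3%. For C/EBP (TTGCGCAA) and RBPJ (GTGGGAA) the order of rising and falling genes depended on the genes taken: it was turned for C/EBP by requiring a 2-fold change, and for both by taking only genes with 1 promoter in the table. Matches describe letters in a window, overlap with one another was not removed, and none is shown to be a binding site.

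**Figure D2:**
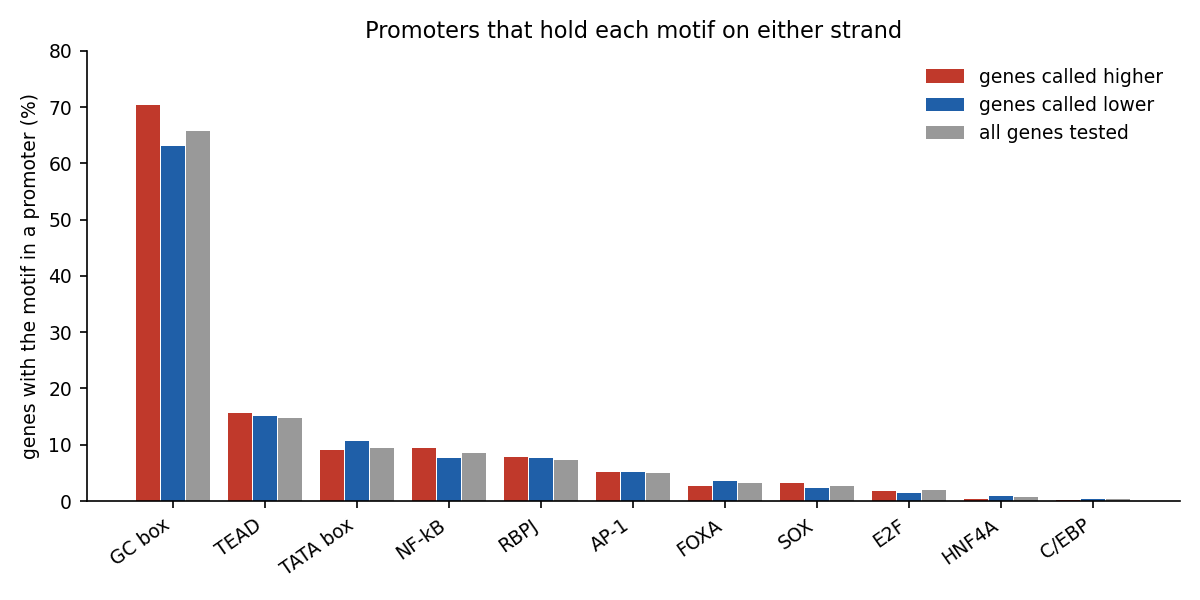
Share of genes (percent, vertical axis) whose RefSeq promoter holds each of 11 motifs on either strand, for genes called higher, genes called lower and all genes tested with a promoter. The GC box differs most, 70.4% against 63.1%; the TEAD and AP-1 bars lie side by side.

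The plasma proteins made by hepatocytes fell together, and most stayed well detected. Alb, encoding albumin, was at 71988, 74616 and 73693 CPM in the early libraries and 10484, 13323 and 14044 CPM in the intermediate libraries, a 5.82-fold fall (log2 fold change -2.54, SE 0.18, adjusted p = 6.35e-08). Of 16 plasma carriers 15 fell and 0 rose, and all 16 apolipoprotein and lipid export genes fell (median log2 fold change -2.91). Apoa1 of high density lipoprotein and Apob of low density lipoprotein had log2 fold changes of -2.44 and -1.59, and Apoc3 fell from 1659.6, 1649 and 1636 CPM to 140.5, 158 and 147 CPM. Coagulation genes fell in 19 of 20 cases (median log2 fold change -1.88), among them F2 (prothrombin, -2.06), Fgb (fibrinogen beta, -1.56) and Serpinc1 (antithrombin, -3.08). All 17 complement genes fell (median log2 fold change -2.0), with C3 at -1.12. Total-count scaling gave 1 higher and 13 lower calls for complement, 1 and 18 for coagulation genes and 1 and 13 for plasma carriers. All 16 acute phase genes fell (median log2 fold change -3.05), with Saa1, serum amyloid A, at -3.83. The background of falling genes was 25.7%.

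Nitrogen and amino acid metabolism fell without exception among the genes listed. Cps1, the first enzyme of the urea cycle, was at 4282, 5932 and 6786 CPM in the early libraries and 321, 638 and 662 CPM in the intermediate libraries, a log2 fold change of -3.39 (SE 0.43, adjusted p = 1.57e-05). The groups were separate by more than 6-fold. All 10 urea cycle and ammonia genes and all 26 genes of amino acid breakdown fell, with medians of -2.47 and -2.35. Ass1, Hpd and Agxt, which act in the urea cycle or in tyrosine and glyoxylate breakdown, had log2 fold changes of -3.46, -3.78 and -3.71.

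All 14 hepatic glucose enzymes fell (median log2 fold change -2.35), among them G6pc (glucose-6-phosphatase, -3.27) and Pck1 (the gluconeogenic enzyme PEPCK, -2.60). General glycolysis genes went both ways. Hk1, hexokinase 1, was at 0.079, 0.636 and 0.162 CPM in the early libraries and 8.73, 7.01 and 4.07 CPM in the intermediate libraries, a 23.1-fold rise (log2 fold change 4.53, or 5.70 without early replicate 2), and Pkm, the pyruvate kinase of proliferating and non-hepatic cells, rose 4.71-fold from 4.66, 4 and 4.45 CPM to 25.1, 20.7 and 16.2 CPM. Pfkp, platelet-type phosphofructokinase, rose 2.18-fold. Gapdh, Pgk1 and Ldha, which act in all cells, fell, with log2 fold changes of -1.44, -1.38 and -1.35. Of 15 general glycolysis genes 4 rose and 6 fell (background 28.7% and 25.7%), against 9 and 5 with total-count scaling. Their median of -0.10 turned to 0.56 with total-count scaling, to 0.07 without early replicate 1 and to 0.06 without intermediate replicate 2.

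Lipid, bile acid and drug metabolism fell as well. Fatty acid oxidation and ketone genes fell in 21 of 22 cases (median log2 fold change -1.33), and sterol and fatty acid synthesis genes in 25 of 26 (median log2 fold change -1.80). Fabp1, the liver fatty acid carrier, had a log2 fold change of -3.80. Lipogenic genes also varied among the early libraries: Scd1, the stearoyl-CoA desaturase, was at 2919.9, 4399 and 7187 CPM in the early libraries and 241, 470.2 and 723 CPM in the intermediate libraries, and Fasn, fatty acid synthase, at 783, 1530.2 and 2424 CPM in the early libraries and 256, 406 and 511 CPM in the intermediate libraries. Both sets stayed apart, and Scd1 and Fasn fell 10.1-fold and 4.04-fold (adjusted p = 0.000466 and 0.000125). For fatty acid oxidation and ketones, total-count scaling gave 3 higher and 12 lower calls.

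All 11 bile acid synthesis genes fell (median log2 fold change -2.34), including Cyp7a1, the rate-limiting enzyme (-3.90). Of 15 bile transporters 11 fell and 0 rose. Slc10a1, which takes up bile acids from blood, and Abcb11, which exports them into bile, had log2 fold changes of -3.54 and -3.41. Cyp2e1, the ethanol-oxidising P450 whose promoter is shown above, was at 1296, 1029 and 949 CPM in the early libraries and 67.1, 81.2 and 74.5 CPM in the intermediate libraries, a log2 fold change of -3.88 (SE 0.21, adjusted p = 6.5e-09). No intermediate library came within 10-fold of any early one. Across the P450 family 50 of 69 genes fell and 3 rose (median log2 fold change -2.59), or 9 rose with total-count scaling, and conjugation enzymes fell in 22 of 24 cases. Many P450 and UGT genes have close copies whose reads could be split, so single members are uncertain while the shared direction is not set by 1 gene.

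Heme genes mostly fell. Alas1, the rate-limiting enzyme of heme synthesis in liver, was at 656, 1099 and 2064 CPM in the early libraries and 76.2, 144 and 222 CPM in the intermediate libraries, an 8.64-fold fall (adjusted p = 5.97e-05). Replicate 1 was lowest and replicate 3 highest in both groups, and the groups did not overlap. Fech, the ferrochelatase that DDC blocks, had a log2 fold change of -0.90 (adjusted p = 1.42e-05), which was -0.23 (adjusted p = 0.0754) with total-count scaling. Hmox1, which breaks heme down, was at 112, 31.2 and 26.4 CPM in the early libraries and 31.1, 24.6 and 25.1 CPM in the intermediate libraries. These groups overlapped, and its call (log2 fold change -1.08, adjusted p = 0.0344) rests on early replicate 1: without it the change was -0.10 (adjusted p = 0.609), and it was also lost without intermediate replicate 2 (adjusted p = 0.0958) or 3 (adjusted p = 0.0856). Flvcr1, which exports heme, rose 2.19-fold. Of 22 heme genes 2 rose and 17 fell (median log2 fold change -0.87), against 5 and 9 with total-count scaling. Of 14 iron genes 12 fell, among them Ftl1 (ferritin light chain, -1.97) and Tfr2 (transferrin receptor 2, -1.81), against 6 with total-count scaling, and Bmp6, the ligand that signals iron load, rose 1.81-fold.

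Liver transcription factors had a median of -0.88, nearer 0 than those of the urea cycle, amino acid and bile acid synthesis lists. Hnf4a, the nuclear receptor central to hepatocyte identity, was at 1174, 1149 and 1098 CPM in the early libraries and 584, 683 and 644 CPM in the intermediate libraries. It fell 1.79-fold (log2 fold change -0.84, SE 0.12, adjusted p = 4.6e-05), and with total-count scaling the change was -0.18 (adjusted p = 0.195). Cebpa fell 2.87-fold, and Nr1i3 (the drug sensor CAR), Tbx3 and Gata4 had log2 fold changes of -3.78, -2.33 and -2.31. Foxa2 and Prox1 were not called, at 0.16 (adjusted p = 0.282) and 0.22 (adjusted p = 0.193), and were called higher with total-count scaling, at 0.83 (adjusted p = 6.74e-05) and 0.88 (adjusted p = 5.8e-05). In contrast Onecut1, a factor of liver and bile duct development, was at 11.5, 26.5 and 35.5 CPM in the early libraries and 66.6, 75.3 and 93.1 CPM in the intermediate libraries, 3.2-fold higher (SE 0.28 on the log2 scale, adjusted p = 0.000176), and Gata6 rose 2.52-fold. With total-count scaling the numbers that rose and fell were 9 and 10 for liver transcription factors and 18 and 7 for nuclear receptors. Of 27 liver factors 6 rose and 18 fell, and of 35 nuclear receptors 7 and 14 did. The background was 28.7% and 25.7%, so rises were under it in both lists. The median of the receptors, -0.24, turned to 0.43 with total-count scaling.

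**Figure D3:**
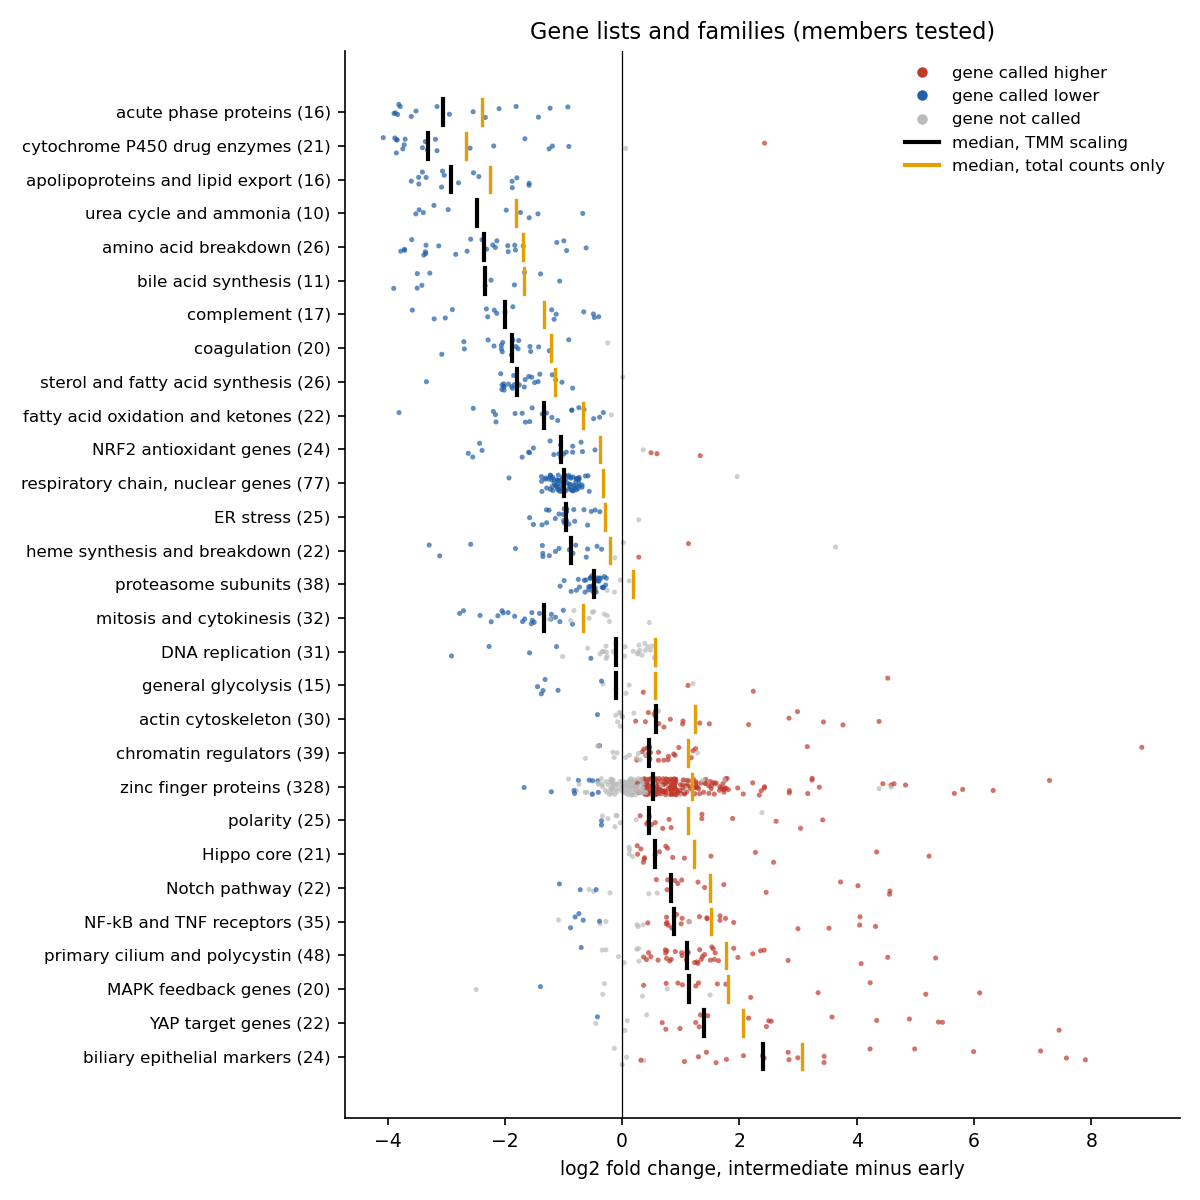
Log2 fold change, intermediate minus early (horizontal axis), of every tested member of selected gene lists (rows); points are genes, coloured by call. Black marks give the median with TMM scaling and orange marks the median with total-count scaling. Lists of hepatocyte metabolism lie left of 0 and lists of ductal markers, cilium and YAP targets right of it, while the medians of proteasome subunits, DNA replication and general glycolysis turn from below 0 to above 0 with total-count scaling.

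Biliary markers rose broadly, but the classical ductal keratins stayed low. Of 24 biliary markers 20 rose and 0 fell (median log2 fold change 2.41), or 2.23 when genes with early libraries at the floor take their lower bound. The list holds Cd24a itself. Sox9, the ductal fate factor, was at 31.6, 51.6 and 46.7 CPM in the early libraries and 281, 352 and 300.4 CPM in the intermediate libraries, 7.19-fold higher (SE 0.18 on the log2 scale, adjusted p = 2.19e-08), with no overlap. Spp1, the secreted matrix protein osteopontin, was at 868, 1031 and 1809 CPM in the early libraries and 11523, 8544 and 9499 CPM in the intermediate libraries, and Sctr, the secretin receptor, rose at least 30.6-fold (at least 16.5-fold without intermediate replicate 1). Krt7 was at 0.395, 0.273 and 0.243 CPM in the early libraries and 5.84, 3.39 and 1.07 CPM in the intermediate libraries, against 172 ± 40.6 CPM (SD, n = 3) in full cells. Krt19 was at 0.079, 0.0908 and 0.162 CPM in the early libraries and 2.76, 2.96 and 0.905 CPM in the intermediate libraries, at least 8.1-fold higher, against 118 ± 18.7 CPM in full cells. Both keratins are the usual histological markers of bile ducts. Krt8, the keratin that hepatocytes share with ducts, was not called (-0.35, adjusted p = 0.0657), but the fit with a replicate block called it (adjusted p = 0.0303), and its change turned to 0.31 with total-count scaling. Vim, encoding the intermediate filament vimentin, was at 30.6, 26.7 and 27.1 CPM in the early libraries and 331, 289 and 242 CPM in the intermediate libraries, 10.2-fold higher.

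Ductal and epithelial transcription factors rose in 16 of 26 cases and fell in 5. Their median log2 fold change was 1.23, or 0.92 when genes with early libraries at the floor take their lower bound. Sox4, a factor of epithelial plasticity whose promoter is shown above, was at 36.4, 35.2 and 65 CPM in the early libraries and 661, 569 and 779 CPM in the intermediate libraries, a log2 fold change of 3.88 (SE 0.23, adjusted p = 1.55e-08). The lowest intermediate library lay more than 8-fold above the highest early one. Foxj1 (a factor of ciliated cells), Tead2 (a partner of YAP) and Ehf (an epithelial ETS factor) had log2 fold changes of 5.37, 5.23 and 4.70. Ehf was at 2.13, 0.0908 and 0.162 CPM in the early libraries and 35.7, 16.1 and 13.2 CPM in the intermediate libraries, and its change was 7.33 without early replicate 1. With total-count scaling 2 of these factors fell. Those that fell with TMM included Id3 (-1.10) and Id1 (-0.95, but -0.29 with adjusted p = 0.278 with total-count scaling), targets of BMP signalling, and the epithelial splicing factor Esrp2 (-1.02). Of 7 Sox genes 4 rose and 0 fell, all 7 rising with total-count scaling, and of 22 Fox genes 12 rose and 3 fell.

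Cell junctions changed their components. Cldn6, a tight junction claudin of embryonic epithelia, was at 0.316, 0.454 and 1.05 CPM in the early libraries and 34.6, 32.6 and 32.7 CPM in the intermediate libraries, 53.9-fold higher (log2 fold change 5.75, or 6.43 without early replicate 3, adjusted p = 2.97e-10). Of 19 tight junction genes 13 rose and 2 fell, the falls being Cldn1 (-1.87) and Cldn14 (-1.73). The gap junction genes Gjb1 and Gjb2, the connexins of hepatocytes, had log2 fold changes of -1.76 and -2.26, while Cdh1, E-cadherin, and the desmosomal Dsg2 rose 1.89-fold and 2.78-fold. Of 30 actin cytoskeleton genes 20 rose and 1 fell. Tmsb4x, which binds actin monomers, was at 6.8, 17.7 and 17.1 CPM in the early libraries and 301, 308 and 256 CPM in the intermediate libraries, 20.8-fold higher with no overlap. Msn, which links actin to the membrane, and Flna, filamin A, rose 13.6-fold and 10.8-fold. Tubulins went both ways. Of 13 tested 6 rose and 4 fell (or 2 with total-count scaling), and their median of 0.04 was 0.71 with that scaling and lay between -0.08 and 0.21 in the other alternatives. Tuba1a rose 20.9-fold, while Tuba8, Tuba4a and Tubg1 had log2 fold changes of -2.74, -1.17 and -0.65, the last turning to 0.016 with total-count scaling.

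Matrix receptors rose more often than they fell. Of 23 genes 10 rose and 3 fell (background 28.7% and 25.7%). Itgb8, the integrin chain that activates TGF-beta, was 53.9-fold higher and Itga2, the collagen receptor chain, 17.4-fold higher. Itgb4, the laminin receptor chain of hemidesmosomes, rose 12.7-fold (log2 fold change 3.66, or 4.25 without early replicate 2), and the heparan sulfate carrier Sdc2 had a log2 fold change of -1.12. Among basement membrane and matrix genes 12 of 31 rose and 4 fell, against the same background. Their median of -0.01 lay above 0 in 9 of 14 alternatives, at 0.65 with total-count scaling and at 0.04 to 0.21 in the other 8. The laminin chain Lama4 rose at least 32.6-fold (at least 20.7-fold without intermediate replicate 1), and Col18a1, of basement membranes, had a log2 fold change of -1.01. The number that fell was 7 without early replicate 1, 8 without intermediate replicate 3, 2 without early replicate 3, 1 in a fit of the compared groups alone, 6 with the replicate block, by DESeq2 or without the filter on low counts, and 2 with total-count scaling. For integrins and matrix receptors, total-count scaling gave 17 higher and 1 lower calls.

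**Figure D4:**
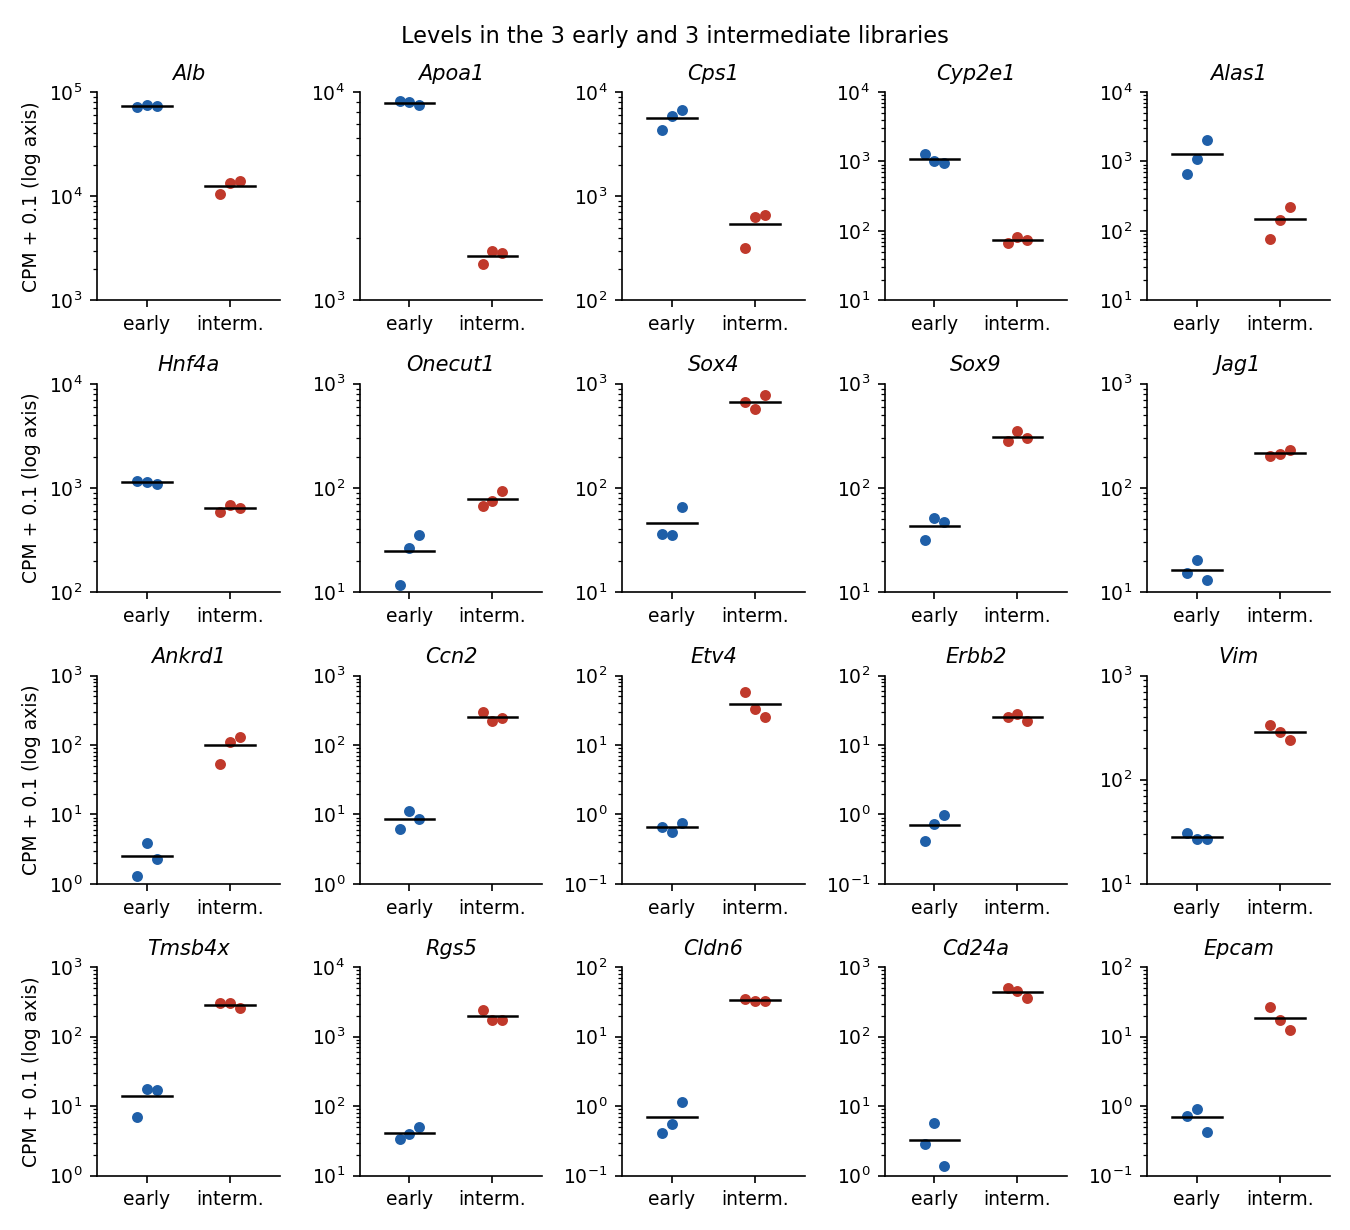
Level in each library (CPM + 0.1 on a log axis) for 20 genes, with 1 point per library, a bar at the group mean and the groups side by side. The early and intermediate points of Alb, Cps1, Sox4, Sox9 and Vim do not overlap; Cd24a is the gene of the gate.

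YAP signalling genes rose at the level of partners and targets, while Yap1 itself was not called. Yap1, the coactivator held back by the Hippo kinases, was at 143, 138 and 142 CPM in the early libraries and 142, 169 and 168 CPM in the intermediate libraries. These overlapped (log2 fold change 0.18, adjusted p = 0.112), although the gene was called with upper-quartile scaling (0.26, adjusted p = 0.021), with total-count scaling (0.84, adjusted p = 2.28e-06) and without intermediate replicate 1 (0.26, adjusted p = 0.0316). Its relative Wwtr1 (TAZ) rose 1.55-fold, and the DNA-binding partners Tead1 and Tead4 rose 2.86-fold and 5.99-fold. Ptpn14, a phosphatase that restrains YAP, rose 20.3-fold (log2 fold change 4.34, or 5.06 without early replicate 1). Ccn2, a matricellular target of YAP, was at 6.09, 11.2 and 8.57 CPM in the early libraries and 299, 224 and 244 CPM in the intermediate libraries, 29.8-fold higher (SE 0.21 on the log2 scale, adjusted p = 1.21e-09). Ankrd1, another target, was at 1.19, 3.82 and 2.18 CPM in the early libraries and 53.6, 111 and 132 CPM in the intermediate libraries, 42.1-fold higher. Both were separate between the groups, as was the target Fjx1, at least 57.9-fold higher. Ccn1 rose 2.52-fold. In all, 17 of 22 YAP targets rose and 1 fell (median log2 fold change 1.40), and 17 of 21 Hippo pathway genes rose and 0 fell (median log2 fold change 0.56).

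Notch ligands were among the pathway's larger gains. Jag1, the ligand known to drive ductal fate, was at 15.3, 20.4 and 13.1 CPM in the early libraries and 202, 214 and 229 CPM in the intermediate libraries, 13.2-fold higher (SE 0.17 on the log2 scale, adjusted p = 1.92e-09), and Jag2 rose 23.6-fold (log2 fold change 4.56, or 3.93 without intermediate replicate 1). The ligand Dll1 had a log2 fold change of -1.07, and -0.41 (adjusted p = 0.0927) with total-count scaling. The receptor Notch2 and the coactivator Maml3 rose 2.02-fold and 3.32-fold. Neither the receptor Notch1 (0.46, adjusted p = 0.177) nor the target Hes1 (0.60, adjusted p = 0.172) was called, but both were with the replicate block (adjusted p = 0.0214 and 0.000154) and with total-count scaling. Of 22 Notch genes 14 rose and 3 fell (median log2 fold change 0.84), or 0 fell with total-count scaling.

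Among TGF-beta and BMP genes 21 of 41 rose and 7 fell (background 28.7% and 25.7%). The ligand genes Tgfb3 and Bmp4 rose 25.2-fold and 4.66-fold, as did Ltbp2, a TGF-beta binding matrix protein (6.31-fold). The activin chains Inhbe and Inhbc, which hepatocytes secrete, had log2 fold changes of -2.30 and -1.38, the latter -0.72 (adjusted p = 0.0667) with total-count scaling. Wnt genes rose in 16 of 36 cases and fell in 7, against the same background. The ligands Wnt7a and Wnt4 rose 40.9-fold and 12.4-fold and the receptor Ror1 rose 4.17-fold. Lgr5 and Axin2, targets of beta-catenin in pericentral hepatocytes, had log2 fold changes of -3.62 and -1.48. The change of Lgr5 was -2.67 without early replicate 1, and that of Tgfb3, 4.65, was 5.32 without early replicate 3. With total-count scaling the numbers that rose and fell were 29 and 3 for TGF-beta and BMP signalling and 26 and 3 for Wnt pathway.

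Growth factor receptors moved in opposite directions. Egfr, the EGF receptor of hepatocytes, was at 256, 173 and 439 CPM in the early libraries and 127, 94.4 and 124 CPM in the intermediate libraries, a log2 fold change of -1.33 (SE 0.25, adjusted p = 0.000458). Its relative Erbb2 was at 0.316, 0.636 and 0.889 CPM in the early libraries and 25.1, 27.7 and 22.2 CPM in the intermediate libraries, 40.5-fold higher (SE 0.22 on the log2 scale, adjusted p = 7.66e-10). Neither gene overlapped between groups. The EGF-type ligand Hbegf and the PDGF chain Pdgfb rose 5.86-fold and 5.61-fold, and Met, the HGF receptor, rose 1.37-fold. Mst1 and Hgfac, an HGF-like ligand and the protease that activates HGF, had log2 fold changes of -2.07 and -2.01. Downstream genes of the MAPK pathway rose in 13 of 20 cases and fell in 1, or 2 with the replicate block or without early replicate 3 (median log2 fold change 1.14). Etv4, an ETS factor induced by FGF and MAPK signals, was at 0.553, 0.454 and 0.647 CPM in the early libraries and 56.9, 33.2 and 25.3 CPM in the intermediate libraries, 68.5-fold higher, and Etv5 rose 4.57-fold (log2 fold change 2.19, or 1.56 without intermediate replicate 1). The feedback inhibitor Spry2 rose at least 12.1-fold, or at least 7.83-fold without intermediate replicate 1.

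Of 23 genes of the growth hormone and IGF axis 7 rose, near the background of 28.7%, and 10 fell (background 25.7%). Their median of -0.36 turned to 0.30 with total-count scaling and to 0.11 without early replicate 1. Igf1, which hepatocytes secrete, and the binding protein Igfbp2 had log2 fold changes of -2.60 and -3.42, while Igfbp7 rose 18.5-fold. For growth hormone and IGF axis, total-count scaling gave 11 higher and 5 lower calls.

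NF-kB genes mostly rose, while interferon-stimulated genes moved both ways. Of 35 NF-kB and TNF receptor genes 22 rose and 5 fell (median log2 fold change 0.89). For this and the following lists the background was 28.7% rising and 25.7% falling. Ltb, the ligand lymphotoxin beta, was at 4.58, 1.91 and 1.94 CPM in the early libraries and 64.1, 49.2 and 28.5 CPM in the intermediate libraries, 16.6-fold higher (adjusted p = 6.82e-07), and Nfkb2 and Birc2 of the non-canonical pathway rose 1.8-fold and 3.74-fold. Ccl2, which attracts monocytes, was at 47.4, 26.9 and 26.8 CPM in the early libraries and 196, 250.1 and 297 CPM in the intermediate libraries, 7.34-fold higher (adjusted p = 4.41e-06), with no overlap. Of 26 chemokines and cytokines 12 rose and 6 fell, the falls including Cxcl9 (-2.21) and Cxcl12 (-1.26). Interferon-stimulated genes rose in 5 and fell in 12 of 34 cases, and antigen presentation genes in 3 and 11 of 25. The medians of both lists, -0.11 and -0.26, turned to 0.55 and 0.40 with total-count scaling. B2m, the light chain of class I molecules, had a log2 fold change of -0.93. With total-count scaling the numbers that rose and fell were 26 and 0 for NF-kB and TNF receptors, 19 and 3 for interferon-stimulated genes and 14 and 2 for antigen presentation.

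Counts for immediate early genes depended on the fit. Of 22 genes 6 rose and 1 fell (background 28.7% and 25.7%), against 12 and 4 with the replicate block, 12 and 0 with total-count scaling and 13 and 2 without the filter on low counts. The number that fell was 2 by DESeq2, with RLE factors, in a fit of the compared groups alone and without early replicate 1 or intermediate replicate 3, and 0 without early replicate 2. Jun was not called without the block (0.58, adjusted p = 0.0828) and was with it (adjusted p = 9.6e-05), as with total-count scaling (1.24, adjusted p = 0.00116). Ier3 and Maff rose 5.75-fold and 3.01-fold. Heat shock genes, which hold chaperones of protein folding, rose in 5 and fell in 4 of 16 cases, near the background of 28.7% and 25.7%. With total-count scaling 10 rose, and with the replicate block 6 rose and 6 fell.

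Genes of the primary cilium, the antenna of ductal cells that hepatocytes lack, rose in 40 of 48 cases and fell in 1 (median log2 fold change 1.11). Bicc1, an RNA-binding protein of the cystic kidney and bile duct pathway, was at 80.5, 105 and 96 CPM in the early libraries and 641, 659 and 704 CPM in the intermediate libraries, 7.11-fold higher (SE 0.11 on the log2 scale, adjusted p = 6.84e-10). The groups were separate by at least 6-fold. Pkhd1 (fibrocystin), Pkd1 and Pkd2 (the polycystins) rose 5.36-fold, 1.53-fold and 3-fold. Tmem231 of the transition zone rose 23.1-fold (log2 fold change 4.53, or 5.12 without early replicate 1) and Ift88 of intraflagellar transport 1.67-fold, while Ift20 had a log2 fold change of -0.70, and -0.03 (adjusted p = 0.835) with total-count scaling. Of 25 polarity genes 15 rose and 2 fell (23 and 0 with total-count scaling, and none fell without early replicate 1 or 3 or intermediate replicate 1), and the planar polarity genes Vangl2 and Celsr2 rose 10.7-fold and 8.24-fold. Ductal fluid secretion genes rose in 11 of 24 cases and fell in 7 (background 28.7% and 25.7%), so the falls were near the background. Cftr, already named among the largest rises, and the scramblase Ano6 (3.73-fold) went up, and Aqp8, the water channel of hepatocyte canaliculi, had a log2 fold change of -3.69.

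Mitotic genes were lower in intermediate than in early cells, from a low level that varied among libraries. Mki67, the proliferation marker Ki-67, was at 16.4, 8.99 and 38.7 CPM in the early libraries and 4.4, 2.74 and 7.69 CPM in the intermediate libraries, a log2 fold change of -2.12 (SE 0.46, adjusted p = 0.00154). Early replicate 3 was highest of its group, and without it the change was -1.36. Of 32 mitosis genes 22 fell and 0 rose, but only 9 fell without early replicate 3, 13 without intermediate replicate 2, 14 in a fit of the 6 libraries compared, and 7 with total-count scaling. DNA replication genes fell in 5 of 31 cases and rose in 0, or rose in 2 with the replicate block, 3 with upper-quartile scaling and 5 without the filter on low counts. Their median of -0.11 turned to 0.55 with total-count scaling, where 15 rose and 3 fell. It was 0.31 without early replicate 3, with 12 higher, while 9 fell without early replicate 1. The G1 cyclins moved in opposite directions: Ccnd1 had a log2 fold change of -1.02 and Ccnd2 one of 3.81. The inhibitor Cdkn1a (p21) rose 2.21-fold and the p53 targets Pmaip1 and Plk2 rose 7.77-fold and 3.65-fold. Without early replicate 1 the change of Pmaip1, 2.96, was 3.57. Of 24 p53 targets 12 rose and 3 fell (background 28.7% and 25.7%, median log2 fold change 0.47), and 19 rose with total-count scaling.

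Most genes of the endoplasmic reticulum stress response and of antioxidant defence fell. Hspa5, the endoplasmic reticulum chaperone BiP, was at 968, 1757 and 1339.7 CPM in the early libraries and 456, 876 and 703 CPM in the intermediate libraries, a log2 fold change of -1.0 (adjusted p = 0.00209). The groups did not overlap. With total-count scaling the change was -0.33 (adjusted p = 0.204). Of 25 ER stress genes 24 fell and 0 rose (median log2 fold change -0.95), against 7 and 2 with total-count scaling. Xbp1, a factor of that response, turned from -0.38 to 0.28 (adjusted p = 0.00676) with total-count scaling. NRF2 antioxidant genes fell in 20 of 24 cases (median log2 fold change -1.05), with Nqo1 at -2.62 and Slc7a11, the cystine transporter, at -2.55 (-1.53 without early replicate 1), while Nfe2l2, the gene of NRF2 itself, rose 1.41-fold.

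Of 77 nuclear genes of the respiratory chain 76 fell (median log2 fold change -0.98), or 41 with total-count scaling. All 13 mitochondrial genes fell (median log2 fold change -1.50). mt-Co1, cytochrome oxidase subunit 1, was at 37076, 70562 and 32279 CPM in the early libraries and 16228, 19936 and 17012 CPM in the intermediate libraries, so that early replicate 2, the library with 11.4% mitochondrial counts, was highest and the groups still did not overlap. Cytosolic ribosomal protein genes fell in 22 of 84 cases with a median of -0.19, which turned to 0.48 with 71 higher under total-count scaling. The 22 that fell are near the background of 25.7%. The number that fell was 41 by DESeq2, 35 with RLE factors, 13 with upper-quartile scaling, 12 without the filter on low counts and 14 without intermediate replicate 3. The medians of mitochondrial ribosomal proteins (-0.57), proteasome subunits (-0.48) and tRNA synthetases (-0.38) turned likewise, to 0.10, 0.19 and 0.29 with total-count scaling.

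Families defined by symbol gave further gains, against a background of 28.7% rising and 25.7% falling. Semaphorins and plexins, guidance cues of cell movement, rose in 15 of 26 cases and fell in 3 (median log2 fold change 1.28), with Sema6a at 0.711, 1.91 and 1.37 CPM in the early libraries and 31.1, 27.1 and 26.9 CPM in the intermediate libraries, 21.5-fold higher. Ephrins and their receptors rose in 8 of 15 cases and RGS proteins in 7 of 12. Members fell in 3 and 1 cases. Efna4, an ephrin, rose 40.2-fold (log2 fold change 5.33, or 6.40 without early replicate 3). Zinc finger genes rose in 187 of 328 cases and fell in 10 (median log2 fold change 0.53), and chromatin regulators rose in 25 of 39 and fell in 1, with Hdac7, a class II deacetylase, 8.92-fold higher and Kmt2a, a histone methyltransferase, 2.31-fold higher. Solute carriers went both ways, 61 of 251 higher and 108 lower, with only the falls over the background. Their median of -0.17 turned to 0.45 with total-count scaling. With total-count scaling the numbers that rose and fell were 296 and 2 for zinc finger proteins and 117 and 54 for solute carriers. With the replicate block 3 chromatin regulators fell, as without the filter on low counts, and 4 without early replicate 1, while without early replicate 3, intermediate replicate 2 or intermediate replicate 3, 1 gene of the ephrins and Eph receptors did.

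The change from early to intermediate cells, marked by Cd24, was set against the change from intermediate to full cells, marked by Epcam. The changes share the intermediate libraries. The difference between them was itself called in 2665 genes (16.4%), or 1675 without intermediate replicate 2 and 6145 with total-count scaling. The counts that follow are from the main fit. Of the genes that rose at the first step, 2470 were not called at the second, and in 795 of these the difference was called. Of those that fell at the first step, 1505 were not called at the second, and the difference was called in 235. Etv4 changed by 6.10 at the first step and 0.02 at the second on the log2 scale (adjusted p of the difference 6.17e-06), and Rgs4 had a second-step change of -0.37 (adjusted p = 0.104). Thbs1, the matrix protein thrombospondin 1, was at 1.5, 7.72 and 7.11 CPM in the early libraries and 64, 162 and 298 CPM in the intermediate libraries. Cav1, caveolin 1, was at 2.61, 8.27 and 4.85 CPM in the early libraries and 101, 127 and 141 CPM in the intermediate libraries. Neither overlapped, and their log2 changes were 5.02 and 4.57 at the first step (4.39 for Thbs1 without intermediate replicate 3) against 1.19 and 0.16 at the second. Sox4 and Vim had second-step changes of 0.10 (adjusted p = 0.73) and -0.23 (adjusted p = 0.226), with differences between steps of 3.78 and 3.58 (adjusted p = 7.02e-06 and 5.79e-07).

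Among losses, Oat, the ornithine aminotransferase, was at 123, 60.3 and 57.6 CPM in the early libraries and 14.1, 10.2 and 8.88 CPM in the intermediate libraries, and C4a, Lhpp, Hacl1 and Ces1d had first-step changes of -2.90, -2.81, -2.59 and -2.39 without a called second step. Hnf4a fell further at the second step (-1.77). Mitosis genes went opposite ways: 22 of 32 fell at the first step, and 32 rose at the second (median 3.02). The difference was called in 31, against 16.4% of all genes tested. The first-step count was 7 with total-count scaling and, as given above, depended on early replicate 3. Mki67 had a second-step change of 4.12 to 85.7 ± 21.7 CPM (SD, n = 3) in full cells (adjusted p of the difference 0.000276).

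**Figure D5:**
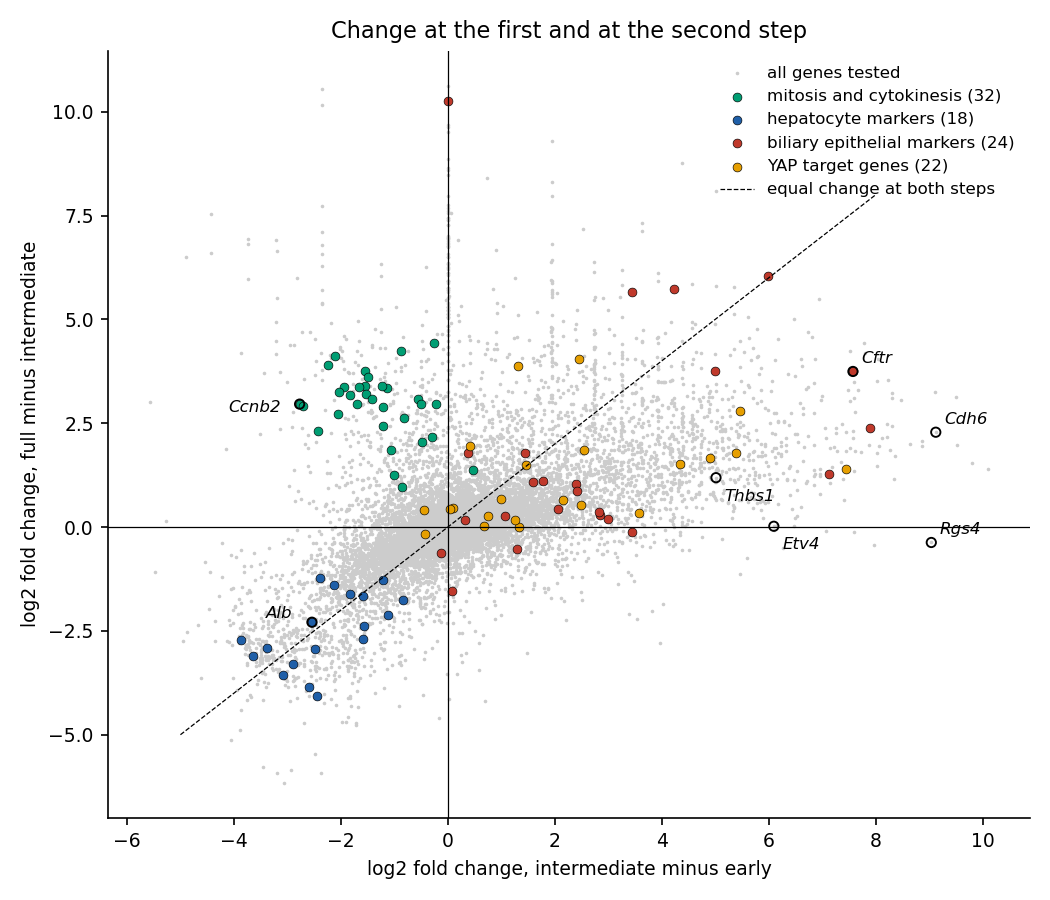
Log2 fold change at the second step (full minus intermediate, vertical axis) against the first step (intermediate minus early, horizontal axis) for all genes tested (grey) and 4 lists (colours); the dashed line marks equal change, and rings mark named genes. Most mitosis genes lie left of 0 and all lie above 0, hepatocyte markers lie below 0 at both steps, and Rgs4 and Etv4 lie far right near the horizontal line.

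Markers of other liver cells were measured beside these results. Their part in the results was not tested. Summed macrophage marker levels were 27.9 to 35.2 CPM in early and 33 to 47.2 CPM in intermediate libraries, with 14 of 18 markers tested, 2 higher, 1 lower and none at 0 in all 6 libraries. Without Csf1r the sums were 23.8, 31.3 and 28.6 CPM in early and 8.41, 19.5 and 22.6 CPM in intermediate libraries. Neutrophil markers summed to 0.323 to 0.999 and 0.44 to 1.13 CPM (1 of 12 tested, not called), with Ngp at 0. B cell markers summed to 0.404 to 1.58 and 1.09 to 2.95 CPM (2 of 13 tested, none called), and 8 were at 0, Cd79b, Ms4a1 and Pax5 among them. T and NK cell markers summed to 0.395 to 0.728 and 1.24 to 1.86 CPM (2 of 16 tested, 1 higher), and 7 were at 0, Cd3d, Trac and Nkg7 among them. Without Lck the T and NK sums were 0.395, 0.545 and 0.728 CPM in early and 0.0628, 0.547 and 0.509 CPM in intermediate libraries. Endothelial markers summed to 68.1 to 86.5 and 42.7 to 66.3 CPM, with 3 of 17 higher and 2 lower, and erythroid markers summed to 24.5 to 39.8 and 3.5 to 4.81 CPM, with Hbb-bt and Slc4a1 at 0, and had 1 of 4 higher (0 with the replicate block) and 3 lower. Without Alas2 the erythroid sums were 6.01, 4.81 and 6.87 CPM in early and 1.88, 1.04 and 1.81 CPM in intermediate libraries. Leaving out single libraries moved the macrophage, endothelial and erythroid counts by at most 1. Dendritic cell markers summed to 193 to 233 and 93.2 to 106 CPM, with 1 higher and 1 lower of 3 tested and Siglech, Ccr7 and Cd209a at 0. Without Bst2, also an interferon-stimulated gene, those sums were 17.9, 7.54 and 9.14 CPM in early and 22.9, 19.8 and 19.2 CPM in intermediate libraries. Mesothelial markers summed to 3.64 to 7.54 and 4.47 to 6.9 CPM, with 2 higher and 1 lower of 6. Platelet markers summed to 3.31 to 13.4 and 5.94 to 7.79 CPM, with none of 3 called and 6 at 0.

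Stellate cell and fibroblast markers summed to 160.3 to 407 CPM in early and 1862 to 2552 CPM in intermediate libraries. Without Rgs5 the sums were 127, 317 and 358 CPM in early and 90.3, 133 and 222 CPM in intermediate libraries. Rgs5, a regulator of G protein signalling that also marks pericytes, was at 33.4, 40.1 and 49.3 CPM in the early libraries and 2462, 1729 and 1713 CPM in the intermediate libraries, 48.1-fold higher (adjusted p = 5.41e-10), and at 1916 ± 305 CPM (SD, n = 3) in BEC libraries. Of 17 markers 2 rose and 2 fell, against 6 that fell with the replicate block, 8 without early replicate 1 or intermediate replicate 3, and 0 without any other of the 6 libraries. It was 4 with RLE factors, 3 by DESeq2, 7 without the filter on low counts, 1 in a fit of the compared groups alone and 0 with total-count scaling. Collagens, likewise, rose in 14 and fell in 5 of 31 cases (background 28.7% and 25.7%). Of them 9 fell under the block, 12 without early replicate 1, 9 without the filter on low counts, 9 without intermediate replicate 3 and 3 without any other of the 6 libraries. Total-count scaling left 2 falling and a fit of the compared groups alone 3, and 9 rose among collagens with a mean of at least 50 counts.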

How the data were processed

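The authors deposited raw counts per gene symbol for bulk RNA of 12 sorted mouse liver libraries. The submitters' processing notes name STAR 2.7.10b, featureCounts 2.0.1, DESeq2 and the build GRCm39. The annotation, strandedness and treatment of reads that match several genes are not given in the sources used here, so close paralogs (P450, UGT, serpin A, H2 and ribosomal genes) and overlapping genes are uncertain. A second deposited table of normalized values was not used.

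Groups came from the sample titles. edgeR 4.0.16 and limma 3.58.1 (R 4.3.3) kept 16210 of 53599 genes with filterByExpr, which held 99.9% of the counts in the library with the smallest share, and scaled them by TMM. All 12 libraries entered 1 quasi-likelihood fit with a term per group. The contrasts were intermediate minus early, and that change minus the change from intermediate to full, called at a Benjamini-Hochberg adjusted p under 0.05. The biological coefficient of variation was 14.8%. The floor was 3 counts per library (0.164 to 0.273 CPM in these 6), and folds against a group at the floor are lower bounds that use the highest floor of that group's libraries and cover counting error only. The code was tested on simulated counts. Alternatives were DESeq2 1.42.0, other scalings and filters, a minimum fold, a fit of the compared groups alone, a replicate block and leaving out each library. Restricting motif counts to genes with 1 promoter and marker sums without 1 member were chosen after seeing the data.

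Whether replicates come from separate mice is not stated, so p-values measure only the spread between these samples, which may be technical. Replicates differed beyond counting noise (chi-square per degree of freedom 10.1 to 52.1). Deviations from the group means correlated across genes between same-numbered early and intermediate libraries (r = 0.293, 0.121 and 0.221). The r between differently numbered libraries was -0.221 to 0.0245, and deviations from a group mean sum to 0, which pushes these values down. Every same-number r was over 0.1, so the numbers, which come from the titles, may pair the libraries. The main fit had no term for the replicate number, so its p-values leave this pairing out. Only the alternative fit with a replicate block takes it in, and it called 9276 genes against 8817 in the main fit.

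The comparison, the 68 gene lists and the 25 symbol families were chosen with earlier results of these data known, so list counts are descriptions. The text names the sort markers, the 10 genes with the largest change in each direction (called, no overlap, at least 10 CPM in the higher group), up to 3 called members of each list in each direction (at least 5 CPM), 2 of each family, and the 5 in each direction that changed at the first step alone. Some of the genes this selects are not reported here. Genes outside it, such as Alb, Hnf4a, Yap1 and Mki67, were named for their roles after their values were seen. Promoters came from RefSeq (GRCm38.p6), matched by symbol. Python 3.11.15 and matplotlib 3.10.9 drew the figures.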

Additional observations from a re-analysis of the deposited data

How the results depend on the processing

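The 4 counts (8817 genes called between intermediate and early cells, 4658 higher, 4159 lower, and 2665 called between the steps) stayed within 1.5 times under DESeq2, RLE and upper-quartile factors, both other filters and a fit of the compared groups alone. With the replicate block, which pairs same-numbered libraries, they were 9276, 4880, 4396 and 3497. The block changed 4 calls of the 394 genes examined one by one (Hes1, Jun, Krt8 and Notch1, given above) and no other. Requiring a 2-fold change left 2773 called, 1645 higher, 1128 lower and 667 between steps. Total-count scaling gave 9623 higher, 1623 lower and 6145 between steps; the cause was not tested. Leaving out single libraries gave 8123 to 8478 called, 4310 to 4485 higher, 3806 to 4023 lower, and 1675 (without intermediate replicate 2) to 2828 between steps. Total-count scaling reversed 17 of the 394 genes: Adam9 to 0.23, Crb3 to 0.31, Dock5 to 0.24, Hdac11 to 0.28, Itgb1bp1 to 0.22, Kif13b to 0.37, Kif21a to 0.11, Krt18 to 0.28, Krt8 to 0.31, Nectin1 to 0.12, Prkcz to 0.31, Rfng to 0.22, Rpl13a to 0.010, Sdc4 to 0.25, Tln2 to 0.24, Tubg1 to 0.016 and Xbp1 to 0.28 on the log2 scale. It ended the call of 32 others. Genes under the floor of 3 counts limit folds to lower bounds. Of 1068 list counts with 1 library left out, 77 moved by more than 1.5 times.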

Other observations

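Proteases that cut matrix, and their inhibitors, rose in 12 of 24 cases and fell in 4 (median log2 fold change 0.97), or 2 with total-count scaling. Mmp11, stromelysin 3, was at 1.42, 0.727 and 0.97 CPM in the early libraries and 31.5, 24.5 and 22 CPM in the intermediate libraries, 24.6-fold higher (adjusted p = 2.45e-09), and Plat, tissue plasminogen activator, rose 11.4-fold. Of 18 oncofetal genes 8 rose and 4 fell. Bex1, Tspan8 and the imprinted Peg3 rose 13.8-fold, 2.83-fold and 2.44-fold, while the imprinted H19 and the galectin Lgals3 had log2 fold changes of -3.65 and -1.45. Igf2bp1, Lin28a and Lin28b had 0 counts in all 6 libraries, but other fetal genes had reads. Raw counts of Trim71 were 0, 0 and 0 in the early libraries and 27, 32 and 29 in the intermediate ones. Those of Hmga2 were 4, 0 and 0 and then 31, 21 and 6. Afp, alpha-fetoprotein, had 160, 154 and 123 raw counts in the early libraries and 129, 149 and 97 in the intermediate ones. Mesenchymal factors did not move together: Zeb2 rose 7.53-fold, Snai2 had a log2 fold change of -1.78, and of 14 genes 6 rose and 1 fell (10 and 1 with total-count scaling; 2 fell without intermediate replicate 3). Of 14 mucosal defence genes 2 rose and 4 fell, against 28.7% and 25.7% of all genes tested. The number that rose was 1 without early replicate 2, early replicate 3 or intermediate replicate 1, and in a fit of the compared groups alone. It was 3 with the replicate block and with total-count scaling. Tff3 (a trefoil peptide), Pigr (the carrier of secreted antibody) and Lcn2 (lipocalin 2) had log2 fold changes of -1.96, -2.46 and -1.81.

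Csf1r, the receptor of a macrophage growth factor, was at 4.11, 3.91 and 3.8 CPM in the early libraries and 24.6, 24.6 and 24.5 CPM in the intermediate libraries, 6.23-fold higher (adjusted p = 8.55e-10), although most macrophage markers were not called and Cd68 had a log2 fold change of -2.35. The part of macrophages in this value was not tested. Lck, a kinase known from T cells, was at 0, 0 and 0 CPM in the early libraries and 1.26, 1.31 and 0.735 CPM in the intermediate libraries, at least 4.04-fold higher, with Cd3d and Trac at 0 in all 6 libraries.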
